A study of Mus musculus with 6 samples.

Results

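The expression of 41 genes of ribosome biogenesis and of the RNA polymerase I machinery was examined in mammary epithelial cells of the mouse and in tumor cells that lack JNK. The genes were taken from a list of symbols by function, with no threshold on their values, though earlier results of these data were known when it was made. Each of the 41 had 1 entry among the 37755 of the table, and all 41 passed the filter for testing, a mean of at least 1 FPKM over the libraries (12461 entries passed). FPKM, the count of sequenced fragments scaled for gene length and for library size, is a level that can be compared between genes.

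RNA was sequenced from 3 preparations of primary mammary epithelial cells, named MEC here, and from 3 tumor cell lines, 199, 233 and 336, named MEKO. All the mice were of the strain C57/Bl6J and carried a *Wap-Cre* transgene (genotype WAPCre+ for MEC), whose whey acidic protein promoter is switched on by lactation in luminal cells of the mammary gland. The MEC came from 3 to 5 virgin females of 10 to 12 weeks (whether for each preparation or in all is not given), had intact *Mapk8* and *Mapk9* (the genes of JNK1 and JNK2), and were grown on collagen I to near confluence. The MEKO lines (genotype Mapk8KO Mapk9KO Cre+) were grown out of mammary tumors of parous mice and moved to plain dishes after 2 passages; the labels give no age for these mice and no tumor type for each line. Virgin against parous donors, primary culture against established line, normal against tumor, and wild-type against JNK-deficient coincide in this design and cannot be told apart. Each library is labelled as a separate preparation or line, and no line stands for more than its 1 library.

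A few facts of the libraries touch every value below. *Mapk8* was at 23.1, 25.1 and 19.2 FPKM in MEC 1, 2 and 3 and at 5.93, 3.12 and 1.37 FPKM in lines 199, 233 and 336, and *Mapk9* was at 21.5 to 24.4 FPKM in MEC and 3.07 to 7.62 FPKM in the lines. The luminal keratin genes *Krt8*, *Krt18* and *Krt19* were present in all MEC libraries; the summed level of 5 luminal markers was 5308 to 8869 FPKM in MEC and 789 to 1962 FPKM in the lines. The 4 basal markers summed to 1234 to 2196 FPKM in MEC and to 1865 FPKM in line 199, but to 9.89 and 45.0 FPKM in lines 233 and 336, where *Acta2* was at 1.13 and 1.29 FPKM. The 6 fibroblast markers summed to 95.7 to 179 FPKM in MEC, 1081 FPKM in line 199 and 2.38 and 1.82 FPKM in the other lines. In line 199 *Col1a1*, *Col1a2*, *Col3a1* and *Pdgfra* (600, 408, 71.5 and 1.31 FPKM) were above every MEC library. *Dcn* and *Lum* were below every one there, at 0.311 and 0.0264 FPKM, and *Lum* was listed at 0 in lines 233 and 336. Of the leukocyte markers, *Ptprc* was at most 0.399 FPKM, and *Cd68* was at 23.5 FPKM in line 336 and 0.771 to 6.59 FPKM elsewhere. The endothelial markers summed to 11.5, 12.8 and 1.47 FPKM in MEC 1, 2 and 3 and to 0.159 to 0.430 FPKM in the lines. Adipocyte markers were low (sums of 0 to 0.155 FPKM, *Plin1* at 0 throughout). Line 199 thus stood apart from the other lines in its basal and collagen genes. In bulk RNA fewer cells of a type and less RNA per cell cannot be told apart, and FPKM would not show a change in the total RNA of a cell. The part of these markers in the values below was not tested.

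Ribosomes are made mostly in the nucleolus. RNA polymerase I copies the ribosomal DNA into a long precursor, which small nucleolar RNAs and their proteins (snoRNPs) modify, by methylation of the ribose at box C/D sites and by pseudouridylation at box H/ACA sites. A large set of assembly factors then fold, cut and export the small and the large subunit. The program is among the best known targets of the transcription factor *Myc*, it is high in growing and dividing cells, and enlarged nucleoli are a classical feature of tumor cells.

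The members were high in the MEKO tumor cells as a group, with few differences past the test gene by gene. The log2 fold change, MEKO against MEC, is the difference of the group means of log2(FPKM + 1), and it was above 0 for 40 of the 41 members, against 51.2% of all tested entries. The median of the members was 0.64, with a range from -0.32 to 1.28, and the median of all tested entries was 0.01. The summed level of the 41 members was 2359, 2470 and 1651 FPKM in MEC 1, 2 and 3 and 3260, 3076 and 3027 FPKM in lines 199, 233 and 336, so that every line was above every MEC preparation. Without *Npm1*, the most abundant member, the sums were 1609, 1759 and 1126 FPKM in MEC and 2645, 2157 and 2081 FPKM in the lines.

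**Figure D1:**
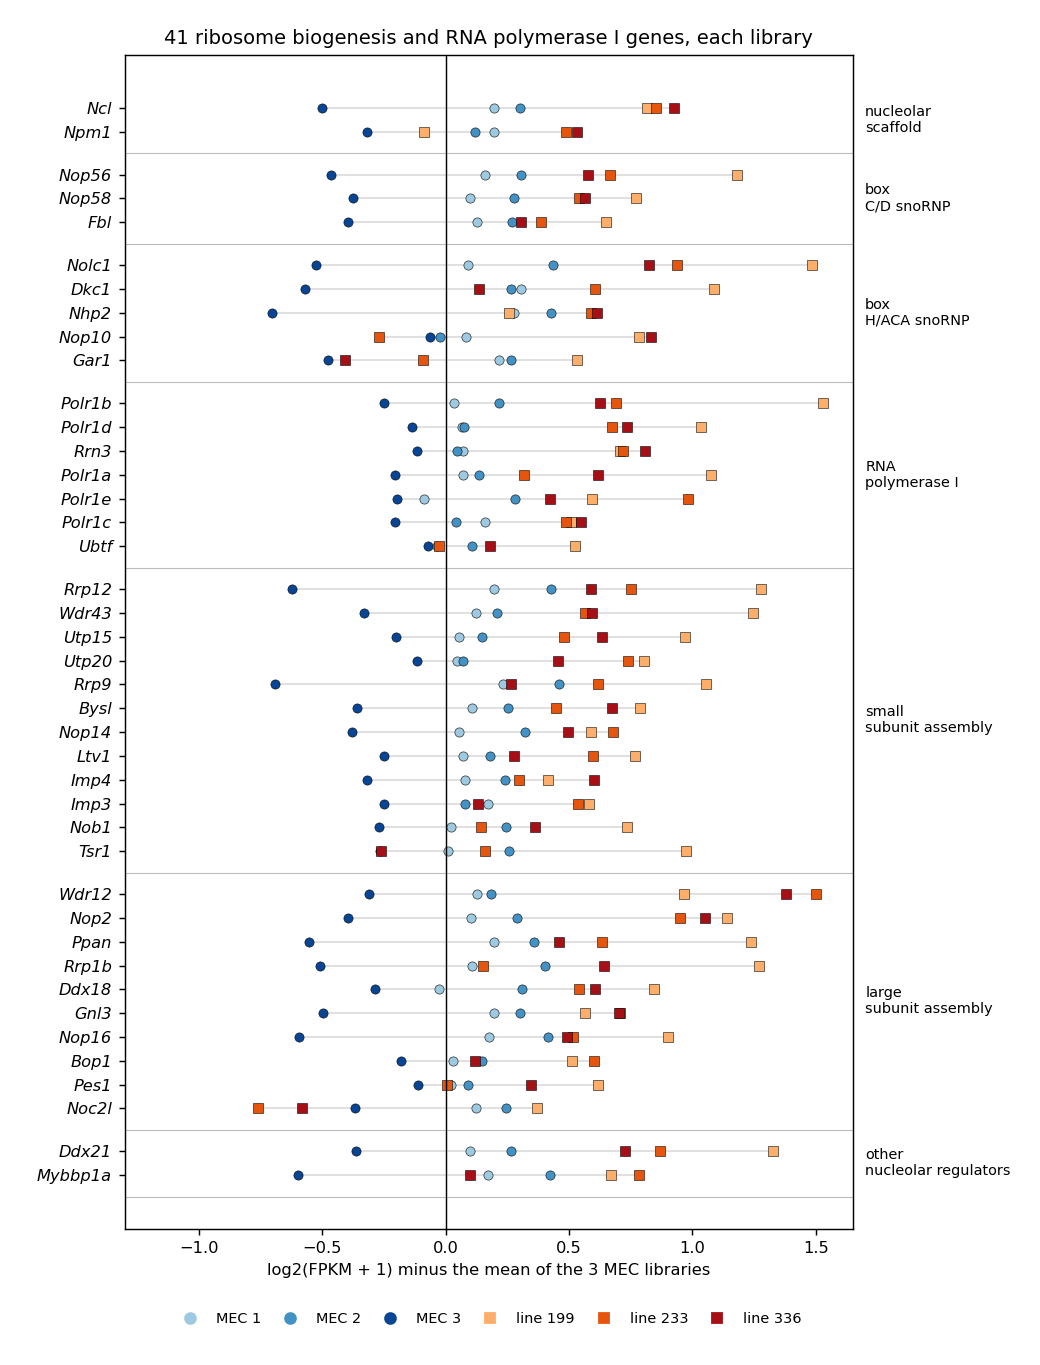
Each row is a member and each symbol a library; the horizontal axis gives log2(FPKM + 1) minus the mean of the 3 MEC libraries, with MEC as circles and the MEKO lines as squares, grouped by role. The squares lie to the right of the circles for 26 members, MEC 3 is the leftmost circle in all 41 rows, and *Noc2l* is the row where lines 233 and 336 lie to the left.

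Past both thresholds of the study (adjusted p under 0.05 and a log2 fold change beyond 0.75; limma, Benjamini-Hochberg over all 12461 entries), 3 members were higher in MEKO, or 7.32% of the 41, against 2.64% of all tested entries. No member was lower, against 7.26% of all tested entries. By the adjusted p alone 4 members were higher (9.76%), against 3.03% of all entries, and 0 were lower, against 7.46%. They were *Wdr12*, *Rrn3*, *Polr1d* and *Nop2*. At an unadjusted p under 0.05, limma gave 23 members higher and 0 lower, against 12.4% and 15.7% of all tested entries. All 3 MEKO values lay above all 3 MEC values for 26 members (63.4%), against 18.5% of all tested entries, and for no member did all MEKO values lie below, against 18.7%. With 3 libraries against 3 an exact permutation test (two-sided) cannot give a p below 0.1, so none is given for single members. The adjusted p of all 4 rested on every MEC library: without MEC 1, MEC 2 or MEC 3, limma left 0 members past it and 17, 25 and 13 members higher at an unadjusted p under 0.05, against 7.33%, 8.3% and 8.15% of all entries. In those fits the share of all entries that were higher past the adjusted p was also smaller, 0.386%, 0.451% and 0.719%.

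**Figure D2:**
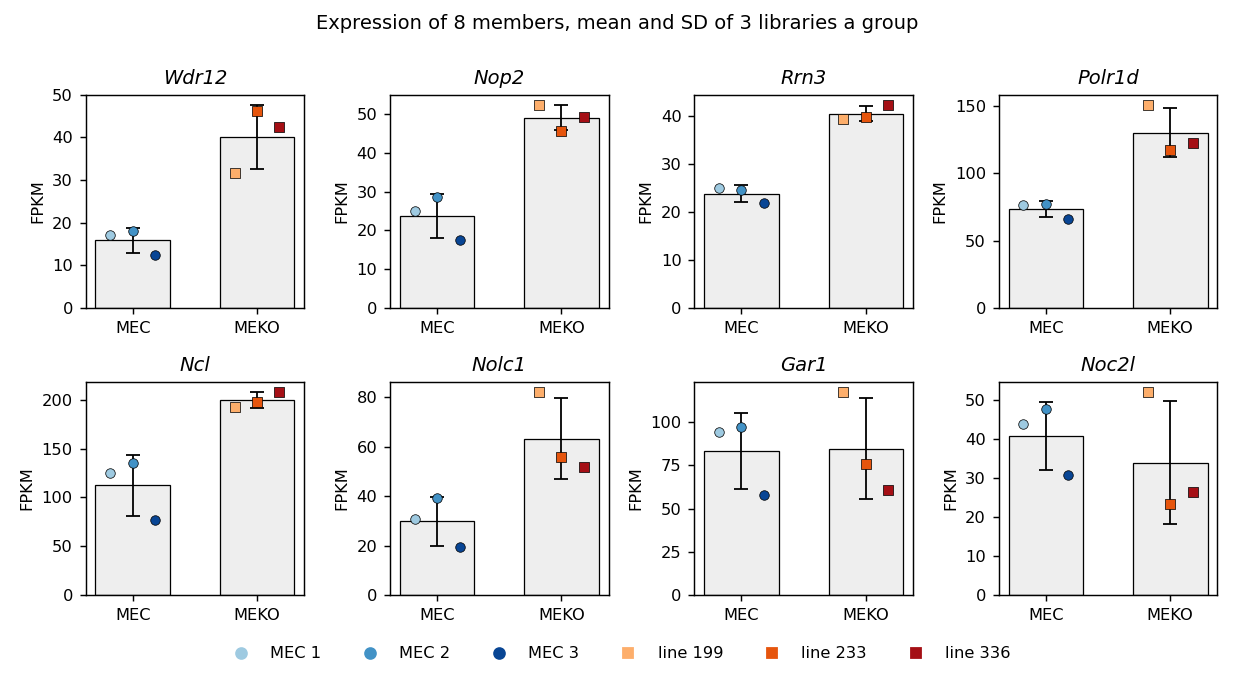
FPKM of 8 members in each library; bars are group means and whiskers the SD of 3 libraries. The upper row holds the 4 members past the adjusted p, whose groups do not overlap; below, *Ncl* and *Nolc1* also do not overlap, while lines 233 and 336 lie inside the MEC range for *Gar1* and below it for *Noc2l*.

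RNA polymerase I and its initiation factors had 2 of 7 members past the adjusted p alone, against 3.03% of all tested entries that were higher. Large subunit assembly had 2 of 10. Past both thresholds it was 1 of 7, against 2 of 10 for large subunit assembly and 2.64% of all tested entries. The difference between the roles was not tested. All 7 had a log2 fold change above 0, with a median of 0.67. For 6 of the 7 the groups did not overlap, against 18.5% of all tested entries with MEKO higher. *Rrn3* (TIF-IA), which joins the polymerase to the promoter of the ribosomal DNA and is the point where growth signals act on it, was at 25.0, 24.5 and 21.8 FPKM in MEC 1, 2 and 3. Its levels were 39.4, 39.6 and 42.2 FPKM in lines 199, 233 and 336. The lines differed from one another by less than from any MEC library, and the means were 23.7 ± 1.72 FPKM in MEC and 40.4 ± 1.60 FPKM in MEKO (SD, n = 3). The log2 fold change of *Rrn3* was 0.74 ± 0.13 (SE), with an adjusted p of 0.0214 by limma, and it was just short of the fold threshold of 0.75. With 0.1 in place of 1 added to FPKM, it was 0.77 (adjusted p = 0.0238, limma), past both thresholds. *Polr1d*, a small subunit shared by RNA polymerases I and III, was at 76.4, 76.9 and 66.3 FPKM in MEC and 151, 117 and 122 FPKM in the lines. This was a log2 fold change of 0.81 ± 0.15 (SE; adjusted p = 0.0258, limma).

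Over the 15 alternative settings the adjusted p ranged from 0.0114 to 0.105 for *Rrn3* and from 0.0120 to 0.109 for *Polr1d*, with 12 of the 15 under 0.05 for each gene. *Polr1d* lies on chromosome 5 (GRCm38, chr5:147077050-147111597, plus strand), whose tested genes had a median log2 ratio to MEC of 0.25, 0.38 and 0.25 in lines 199, 233 and 336. *Polr1d* stood 0.78, 0.30 and 0.48 above these medians.

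*Rrn3* lies on chromosome 16 (GRCm38, chr16:13780708-13814839, plus strand). The 250 bases before its RefSeq start, chr16:13780449-13780698 in GRCm38.p6, hold 2 copies of the E-box CACGTG, a 6-base site that *Myc* with its partner Max, and other factors of the basic helix-loop-helix family, can bind. The window is shown because no other member had 2 copies; the capitals mark the E-box, which reads the same on both strands.
Rrn3: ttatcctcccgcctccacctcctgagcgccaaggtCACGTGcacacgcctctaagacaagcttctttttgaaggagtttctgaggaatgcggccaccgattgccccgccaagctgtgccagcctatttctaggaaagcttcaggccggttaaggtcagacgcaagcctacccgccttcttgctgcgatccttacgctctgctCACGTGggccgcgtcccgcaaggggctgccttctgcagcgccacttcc

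The catalytic subunits of RNA polymerase I were low in level and varied more between the lines. *Polr1b*, the second largest subunit, was at 11.4, 13.1 and 9.22 FPKM in MEC and at 34.0, 18.6 and 17.8 FPKM in lines 199, 233 and 336, a log2 fold change of 0.95 ± 0.28 (SE; adjusted p = 0.0882, limma). It was the largest log2 fold change among the 7, but line 199 was far above the other lines, and the call was not made. *Polr1a*, the largest subunit, *Polr1c*, which is shared with RNA polymerase III, and *Polr1e*, a subunit that binds initiation factors, had log2 fold changes of 0.67, 0.51 and 0.67 with no overlap between the groups and adjusted p-values of 0.123, 0.0786 and 0.105 (limma). *Polr1e* was highest in line 233 (33.3 FPKM, against 14.1 to 20.1 FPKM in MEC). *Ubtf* (UBF), which coats the active ribosomal DNA, was the exception: it was at 35.6, 39.3 and 34.6 FPKM in MEC and at 52.8, 35.8 and 41.4 FPKM in the lines. Line 233 lay inside the MEC range, and the log2 fold change of *Ubtf* was 0.23 ± 0.18 (SE; adjusted p = 0.449, limma).

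The 10 members that assemble the large subunit had the largest and the smallest log2 fold change of all 41, *Wdr12* and *Noc2l*, with a median of 0.66. *Wdr12* is part of the PeBoW complex, together with *Pes1* and *Bop1*, which is needed to process the precursor of the 28S and 5.8S RNAs. It was at 17.2, 18.0 and 12.5 FPKM in MEC 1, 2 and 3 and at 31.6, 46.2 and 42.4 FPKM in lines 199, 233 and 336. Every line was above every MEC library, and the means were 15.9 ± 2.98 and 40.1 ± 7.56 FPKM (SD, n = 3). The log2 fold change of *Wdr12* was 1.28 ± 0.22 (SE; adjusted p = 0.0183, limma), the smallest adjusted p of the 41, and over the 15 alternatives the adjusted p ranged from 0.00516 to 0.0775. *Wdr12* lies on chromosome 1 (GRCm38, chr1:60069785-60098645, minus strand).

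Its partners in the complex did not show a difference of that size. *Pes1* was at 53.4, 56.1 and 48.6 FPKM in MEC and at 81.3, 52.9 and 67.2 FPKM in the lines, where line 233 lay inside the MEC range (log2 fold change 0.32 ± 0.19 SE, adjusted p = 0.307, limma). *Bop1* was at 24.1 to 30.5 FPKM in MEC and at 39.5, 42.2 and 29.9 FPKM in the lines (log2 fold change 0.41 ± 0.18 SE, adjusted p = 0.206, limma). The difference between *Wdr12* and its partners was itself not tested. *Wdr12* was the only one of the 3 for which line 199 was the lowest line.

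*Nop2*, which methylates a cytosine of the 28S RNA, was the other member of this role past the test. It was at 25.0, 28.6 and 17.4 FPKM in MEC and at 52.4, 45.8 and 49.1 FPKM in the lines. The lines were close to one another (49.1 ± 3.32 FPKM, SD, n = 3) and all were above the MEC libraries (23.7 ± 5.71 FPKM). Its log2 fold change was 1.05 ± 0.21 (SE; adjusted p = 0.0286, limma). It was the least stable of the 4, with an adjusted p under 0.05 in 10 of the 15 alternatives and a range of 0.0195 to 0.107; besides the fits without a MEC library, the call was lost without line 233 and without line 336. *Nop2* lies on chromosome 6 (GRCm38, chr6:125131909-125144753, plus strand). The 250 bases before its RefSeq start, chr6:125131633-125131882 in GRCm38.p6, hold 1 E-box, in capitals, 60 bases before the start; the window is shown beside that of *Rrn3* as the other member past the test with the motif.
Nop2: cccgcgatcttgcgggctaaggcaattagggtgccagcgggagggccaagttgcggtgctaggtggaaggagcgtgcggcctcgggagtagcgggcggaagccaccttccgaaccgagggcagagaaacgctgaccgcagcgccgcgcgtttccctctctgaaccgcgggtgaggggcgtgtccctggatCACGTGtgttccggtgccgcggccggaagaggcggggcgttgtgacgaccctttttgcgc

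*Noc2l* was the single member with a log2 fold change below 0. The protein is the mouse counterpart of a yeast factor for nuclear export of the large subunit and is also known as an inhibitor of histone acetylation that binds p53. It was at 43.9, 47.7 and 30.9 FPKM in MEC and at 52.1, 23.3 and 26.5 FPKM in lines 199, 233 and 336. Line 199 was thus above every MEC library and the other lines below every one, and the log2 fold change over the 3 lines was -0.32 ± 0.34 (SE; adjusted p = 0.559, limma). *Noc2l* lies on chromosome 4 (GRCm38, chr4:156236010-156247616, plus strand), whose tested genes had medians of -0.31, -0.34 and -0.23 in lines 199, 233 and 336; *Noc2l* was 0.68 above that median in line 199 and 0.42 and 0.35 below it in the others. Of its exons, 20.9% overlap *Samd11* on the opposite strand, and whether the reads were counted by strand is not given in the sources used here. *Polr1e*, on the same chromosome, was above its median in every line, by 0.90, 1.32 and 0.65.

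The remaining 6 members of this role, the GTPase *Gnl3* (nucleostemin), the helicase *Ddx18*, and *Ppan*, *Rrp1b*, *Nop16* and *Bop1*, had log2 fold changes of 0.41 to 0.78, and none passed the adjusted p. *Rrp1b* was at 31.7, 14.1 and 20.2 FPKM in the lines against 8.53 to 16.9 FPKM in MEC, so that line 233 lay inside the MEC range. *Gnl3* was at 63.7, 70.3 and 70.1 FPKM in the lines against 30.0 to 52.9 FPKM in MEC.

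All 12 members that assemble the small subunit had a log2 fold change above 0, with a median of 0.61 and a range of 0.29 to 0.87. None passed the adjusted p. At an unadjusted p under 0.05 (limma) 7 were higher, against 12.4% of all tested entries. For 8 the groups did not overlap, against 18.5%. *Rrp12*, a HEAT-repeat protein that takes part in the maturation and export of both subunits, had the largest difference. It was the least abundant member, at 8.15, 9.75 and 4.19 FPKM in MEC and 18.4, 12.4 and 11.0 FPKM in the lines (log2 fold change 0.87 ± 0.33 SE, adjusted p = 0.148, limma). *Utp20*, a large scaffold of the small subunit processome, came closest to the threshold of the 12. It was at 10.9, 11.1 and 9.60 FPKM in MEC and at 19.1, 18.2 and 14.8 FPKM in the lines, with a log2 fold change of 0.67 ± 0.16 (SE; adjusted p = 0.0510, limma). *Utp15* and *Wdr43*, which belong to the part of the processome that binds the precursor first, had log2 fold changes of 0.70 and 0.80, with adjusted p-values of 0.0696 and 0.0973 (limma).

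*Imp3* and *Imp4*, partners in the complex that pairs the U3 snoRNA with the precursor, had log2 fold changes of 0.42 and 0.44. *Imp3*, the most abundant of the 12, was at 49.3, 46.2 and 36.6 FPKM in MEC and 65.8, 63.9 and 48.0 FPKM in the lines, with line 336 inside the MEC range. *Tsr1*, a GTPase-like factor that blocks early translation on the immature subunit, was at 23.5, 28.1 and 19.3 FPKM in MEC and 46.8, 26.2 and 19.3 FPKM in the lines. Only line 199 stood above MEC for *Tsr1*, its log2 fold change was 0.29 ± 0.33 (SE; adjusted p = 0.599, limma) and it was -0.05 without line 199. Of the exons of *Tsr1*, 32.3% overlap *Srr* on the opposite strand. *Bysl*, *Nop14*, *Ltv1*, *Nob1* (the nuclease that makes the end of the 18S RNA) and the U3 protein *Rrp9* had log2 fold changes of 0.41 to 0.65.

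The box C/D proteins *Nop56*, *Nop58* and *Fbl*, the methyltransferase fibrillarin, all had groups that did not overlap (18.5% of all tested entries). *Nop56* was at 101, 111 and 64.8 FPKM in MEC and at 205, 143 and 135 FPKM in the lines, a log2 fold change of 0.81 ± 0.26 (SE; adjusted p = 0.109, limma). *Fbl* was at 74.5, 82.0 and 51.4 FPKM in MEC and at 107, 89.2 and 84.4 FPKM in the lines, a log2 fold change of 0.45 ± 0.21 (SE; adjusted p = 0.228, limma). Line 199 was the highest library for all 3 genes, and MEC 2 and line 336 were close for *Fbl*. *Nop58* had a log2 fold change of 0.63, with an adjusted p of 0.105 (limma).

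The box H/ACA proteins were uneven, with log2 fold changes of 0.01 to 1.08 among 5 members. *Nolc1* (Nopp140), a chaperone of snoRNPs in the nucleolus, was at 30.7, 39.2 and 19.7 FPKM in MEC and at 82.3, 56.1 and 51.7 FPKM in the lines. It had the second largest log2 fold change of the 41 members, 1.08 ± 0.30 (SE), but its adjusted p was 0.0710 (limma). The means were 29.9 ± 9.82 FPKM in MEC and 63.4 ± 16.5 FPKM in MEKO (SD, n = 3). *Dkc1*, the pseudouridine synthase dyskerin, was at 24.1 to 45.0 FPKM in MEC and at 78.3, 55.7 and 39.9 FPKM in the lines, where line 336 lay inside the MEC range. Its partners *Gar1*, *Nhp2* and *Nop10*, which with *Dkc1* form the core of each particle and of telomerase, were ordered differently across the libraries.

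*Gar1* was at 94.1, 97.3 and 57.8 FPKM in MEC and at 117, 75.9 and 60.7 FPKM in lines 199, 233 and 336. Only line 199 was above MEC, and the log2 fold change of 0.01 ± 0.31 (SE; adjusted p = 0.987, limma) was below 0 in 5 of the 15 alternatives. *Nop10* was at 31.0 to 34.4 FPKM in MEC and at 56.5, 26.7 and 58.4 FPKM in the lines, so that line 233 was below every MEC library and the others well above. With all 3 lines, the log2 fold change of *Nop10* was 0.45 ± 0.31 (SE), with an adjusted p of 0.385 by limma. It was 1 of 4 members past the adjusted p only in the fit without line 233, the line in which it was low. In that fit 2% of all entries were higher past it. *Nhp2* was at 76.4, 96.5 and 98.1 FPKM in the lines, and line 199 lay inside the MEC range of 38.8 to 86.1 FPKM.

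The abundant nucleolar proteins nucleolin (*Ncl*) and nucleophosmin (*Npm1*) differed from each other. *Ncl* was at 125, 135 and 76.9 FPKM in MEC and at 193, 198 and 208 FPKM in the lines. The lines (200 ± 7.71 FPKM, SD, n = 3) all lay above MEC, whose spread was larger (112 ± 31.0 FPKM), and the log2 fold change was 0.86 ± 0.23 (SE; adjusted p = 0.0640, limma). *Npm1*, which shuttles between nucleolus and cytoplasm and had the highest level of the 41, was at 750, 711 and 525 FPKM in MEC and at 615, 919 and 947 FPKM in the lines. Line 199, the highest MEKO library for 28 of the 41 members, was the lowest one for *Npm1* and lay inside the MEC range. For *Npm1* the log2 fold change was 0.31 ± 0.23 (SE; adjusted p = 0.422, limma).

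Of the remaining nucleolar regulators, the helicase *Ddx21*, which links RNA polymerase I and II transcription to processing, was at 43.2, 48.6 and 31.1 FPKM in MEC and 103, 74.5 and 67.3 FPKM in the lines. Its log2 fold change was 0.98 ± 0.24 (SE; adjusted p = 0.0510, limma), just outside the threshold. *Mybbp1a*, a partner of the polymerase that also binds Myb and p53, was at 83.7, 99.9 and 48.7 FPKM in MEC and at 119, 128 and 79.6 FPKM in the lines. Line 336 lay inside the MEC range for *Mybbp1a*, and the log2 fold change was 0.52 ± 0.32 (SE; adjusted p = 0.329, limma).

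The 3 lines were not alike in the number of members that stood apart from MEC. Counting a member when its level in a single line was outside the MEC range and its log2 ratio to the MEC mean was beyond 0.75 (a description, with no test), line 199 had 24 members higher, against 12.8% of all tested entries, and 0 lower, against 16.9%. Line 233 had 8 members higher (9.92% of all entries) and 1 lower (17.5%), *Noc2l*. Line 336 had 6 members higher (11.2%) and 0 lower (18.2%). The 8 members of line 233 were 19.5% and the 6 of line 336 were 14.6% of the 41, much nearer to the background than the 58.5% of line 199. *Ncl*, *Nolc1*, *Wdr12* and *Nop2* were the members counted as higher in all 3 lines.

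By smaller differences the lines were closer to each other. The median log2 ratio of the members to the MEC mean was 0.79, 0.59 and 0.57 in lines 199, 233 and 336, and 39, 33 and 33 members were above every MEC library, against 40.2%, 37.4% and 39.2% of all tested entries. Below every MEC library were 0, 2 and 1 members, against 39.1%, 37.9% and 37.4%, namely *Noc2l* and *Nop10* in line 233 and *Noc2l* in line 336. Line 199 was the highest MEKO library for 28 members, against 39.6% of all tested entries. Relative to the median of all tested genes of the chromosome each member lies on, the members stood 0.80, 0.54 and 0.45 higher in the 3 lines, with 40, 37 and 38 of 41 above it; the 41 members are spread over 18 chromosomes.

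The MEC libraries differed among themselves in these genes, and always in the same direction. MEC 3 was the lowest MEC library for 41 of 41 members, against 39.3% of all tested entries, and the lowest of all 6 libraries for 39, against 21.2%. MEC 2 was the highest MEC library for 35 members, against 32.9%. The median log2 ratio of the members to the MEC mean was 0.10, 0.26 and -0.33 in MEC 1, 2 and 3, while that of all tested entries was within 0.02 of 0 in each. Measured from MEC 1 and 2 alone, the members were at a median of -0.50 in MEC 3 and of 0.64, 0.38 and 0.37 in lines 199, 233 and 336. The distance of MEC 3 from the other primary cultures was thus somewhat wider than that of lines 233 and 336, with the opposite sign. Without MEC 3 the median log2 fold change of the members was 0.42 and *Nop2* had the smallest adjusted p, 0.0559 (limma).

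As a sum, markers of dividing cells were ordered across the libraries much as the members were. The summed level of 8 proliferation genes (*Mki67*, *Top2a*, *Pcna*, *Mcm2*, *Ccnb1*, *Cdk1*, *Aurkb* and *Bub1*) was 473, 501 and 222 FPKM in MEC 1, 2 and 3 and 844, 569 and 552 FPKM in lines 199, 233 and 336. MEC 3 was the lowest library and line 199 the highest, as for most members. The median log2 fold change of the 8 was 0.83, none passed the adjusted p in limma, and 3 were higher at an unadjusted p under 0.05 (12.4% of all tested entries). The groups did not overlap for 4 of the 8, against 18.5% of all tested entries. For *Pcna*, *Mcm2*, *Aurkb* and *Bub1* line 336 lay inside the MEC range. The part of the 8 proliferation genes in the values of the members was not tested.

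**Figure D3:**
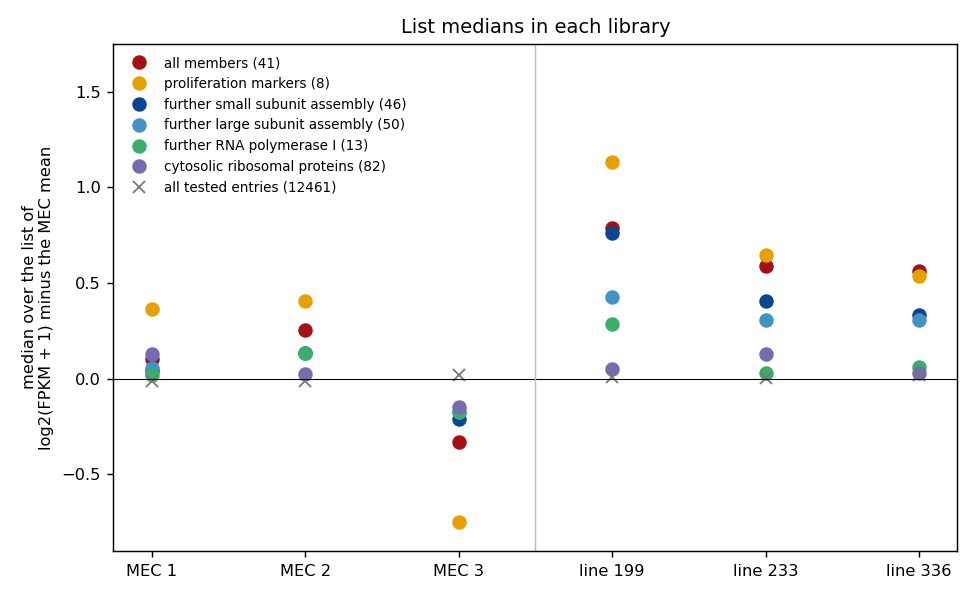
The vertical axis gives the median over each list of log2(FPKM + 1) minus the MEC mean, for each library; the number of tested genes stands in parentheses and crosses mark all tested entries. The members and the proliferation markers are lowest in MEC 3 (-0.33 and -0.75) and highest in line 199 (0.79 and 1.13), while the cytosolic ribosomal proteins stay between -0.15 and 0.13.

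*Myc* was at 73.8, 78.4 and 45.3 FPKM in MEC 1, 2 and 3 and at 138, 147 and 112 FPKM in lines 199, 233 and 336. Every line was above every MEC library, and MEC 3 was the lowest again. The log2 fold change was 1.03 ± 0.25 (SE; adjusted p = 0.0486, limma), and the adjusted p stayed under 0.05 in only 2 of the 15 alternatives, with a range of 0.0362 to 0.128. Leaving out any 1 of the 6 libraries ended that call.

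The E-box CACGTG was looked for in the RefSeq promoter windows, 250 bases before to 50 after each start (GRCm38.p6). Of the 41 members 37 had a window, all but *Bop1*, *Fbl*, *Npm1* and *Rrp12*. They had 46 windows in all, of which 36 begin in a GENCODE transcript of the gene, and the other 10 were not looked into. The motif was present in 9 of the 37 (24.3%), against 8.09% of all genes with a window and 12.0% of the tested ones. Members with the motif had a median log2 fold change of 0.55 and the 28 without it 0.65, a difference that was not tested. The sites of the 7 genes not yet shown follow, with the E-box in capitals and up to 12 bases on each side in the direction of transcription. They are set side by side to show the motif in its place in each member.
Imp4 (chr1:34439696-34439725, plus strand): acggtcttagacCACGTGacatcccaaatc
Ltv1 (chr10:13193092-13193121, minus strand): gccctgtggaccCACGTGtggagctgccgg
Utp20 (chr10:88826765-88826789, minus strand): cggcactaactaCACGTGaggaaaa
Pes1 (chr11:3963965-3963994, plus strand): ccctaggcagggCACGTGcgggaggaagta
Mybbp1a (chr11:72441355-72441376, plus strand): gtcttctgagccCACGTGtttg
Tsr1 (chr11:74898092-74898121, plus strand): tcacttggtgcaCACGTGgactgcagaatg
Wdr43 (chr17:71616220-71616249, plus strand): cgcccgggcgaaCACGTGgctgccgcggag

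The site lies 121 bases before the start in *Imp4* and between 3 and 41 bases after it in the other 6. These 7 genes range from *Tsr1* and *Pes1*, with log2 fold changes of 0.29 and 0.32, to *Wdr43*, at 0.80, and *Rrn3* and *Nop2* are 2 of the 4 members past the adjusted p. A match of 6 letters is a description of the sequence and no evidence that a factor is bound.

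Some members are also hosts of small nucleolar RNAs. Genes of such RNAs lie within the bounds of 8 of the 41 members (19.5%), 23 snoRNA genes in all, against 183 of 10564 tested protein-coding genes (1.73%) in GENCODE release M21. The hosts are *Ncl*, *Nop56*, *Nop58*, *Dkc1*, *Wdr43*, *Tsr1*, *Ppan* and *Gnl3*, with *Nop56* holding 5. Their median log2 fold change was 0.72, against 0.64 for the 33 members without one. The groups did not overlap for 6 of the 8 and for 20 of the 33, against 18.5% of all tested entries. FPKM of the host says nothing of the level of the snoRNA itself, which was not analysed here.

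Genes of the same pathway that are not among the 41 were taken from 7 lists of assembly factors and polymerase subunits. Of 171 genes 166 were tested, with a median log2 fold change of 0.35 and 37 of them below 0. Past the adjusted p 13 were higher and 1 lower (limma), against 3.03% and 7.46% of all tested entries. At an unadjusted p under 0.05 (limma), 54 of the 166 were higher and 1 lower, against 12.4% and 15.7% of all tested entries. All MEKO values lay above all MEC values for 79 of the 166 and below for 4, against 18.5% and 18.7%. By list, 46 further factors of the small subunit had a median of 0.49 with 4 higher and 0 lower, and 50 of the large subunit a median of 0.43 with 6 higher and 1 lower. For snoRNP assembly (11 genes) the median was 0.48 with 2 higher and 0 lower, and for RNase MRP and P (10 genes) 0.44 with 0 past the adjusted p and 4 higher at an unadjusted p under 0.05. The 15 genes of the RNA exosome, which trims the precursor, had a median of 0.11, and the 21 of RNA polymerase III 0.14, with 0 and 1 past the adjusted p and 2 and 3 higher at an unadjusted p under 0.05.

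Among the further small subunit factors, *Nol11*, which helps RNA polymerase I transcription and early processing, *Dhx37*, a helicase that releases U3, and *Wdr36*, a processome protein, rose past both thresholds. Their log2 fold changes were 0.94, 0.92 and 0.90. Among those of the large subunit, *Spata5*, an ATPase that recycles assembly factors, *Rpf2*, which brings in the 5S RNA particle, and *Cebpz* rose by 1.12, 0.85 and 0.78 on the log2 scale. *Las1l*, part of the nuclease that cuts the internal spacer between the 5.8S and 28S RNAs, was the 1 gene of the 7 lists that was lower past the adjusted p. It was at 55.6, 61.6 and 40.7 FPKM in MEC and at 22.2, 16.9 and 16.2 FPKM in the lines, a log2 fold change of -1.45 ± 0.21 (SE; adjusted p = 0.0125, limma). The adjusted p of these 7 genes stayed under 0.05 in 7 (*Cebpz*) to 13 (*Las1l* and *Spata5*) of the 15 alternatives, and without MEC 1 none of the 7 passed.

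**Figure D4:**
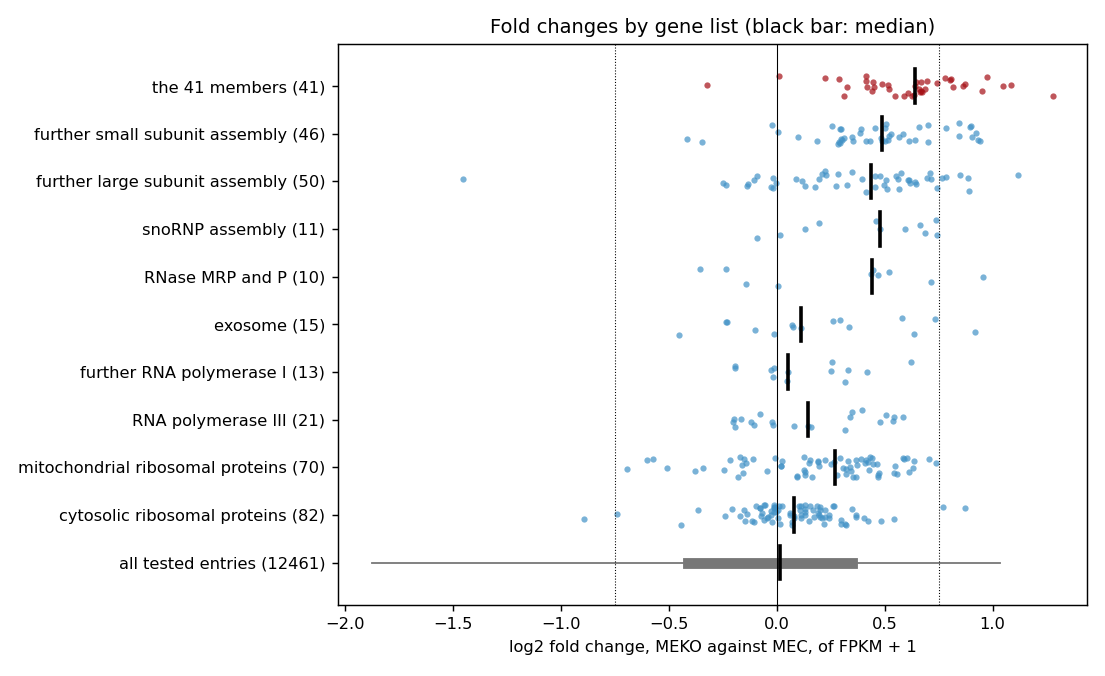
Each point is the log2 fold change of a gene, MEKO against MEC, in 10 lists with the number of tested genes in parentheses; black bars are medians, the grey bar spans the middle 50% and the grey line the middle 90% of all tested entries, and dotted lines mark the fold threshold of 0.75. The median of the members (0.64) lies to the right of those of the further assembly factors (0.43 to 0.49), and the further RNA polymerase I genes (0.05) and cytosolic ribosomal proteins (0.08) lie near that of all entries (0.01).

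The subunits and factors of RNA polymerase I outside the 41 lay nearer to 0 than the 7 members. These 13 genes, among them subunits shared with other polymerases and the TAF1 proteins of the promoter factor SL1, had a median log2 fold change of 0.05 and a range of -0.19 to 0.62. Past the adjusted p were 0, and 2 were higher at an unadjusted p under 0.05 (limma), against 12.4% of all tested entries. The 7 members of that role had a median of 0.67, and this difference was not tested.

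The cytosolic ribosomal proteins, which the pathway assembles, were also near the median of all tested entries, a difference from the members that was not tested. The 82 tested cytosolic ribosomal proteins had a median log2 fold change of 0.08, with 1 higher and 2 lower past the adjusted p, and the 70 mitochondrial ones 0.27, with 3 higher and 0 lower (limma). Of all tested entries, 3.03% were higher and 7.46% lower past it. Genes and pseudogenes of ribosomal proteins are near-identical in sequence, and their reads may have been split in the counting.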

How the data were processed

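RNA-seq libraries from 3 MEC preparations and 3 MEKO tumor cell lines were analyzed, with groups taken from the sample labels. The authors aligned trimmed read pairs (150 bp) to GRCm38, also called mm10, with Bowtie2 and TopHat2 2.0.14 and quantified genes with Cufflinks 2.2.1. The deposited table holds FPKM values per gene and library, normalized by the authors for length and library size. FPKM carries no read numbers, so depth is unknown and no counting interval was computed. Relative depth, read from FPKM under 0.15, was 0.92 to 1.3 times that of MEC 1.

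Differential expression was tested with limma 3.58.1 in R 4.3.3 on log2(FPKM + 1), two-sided, with a mean-variance trend. Entries with a mean of at least 1 FPKM were tested, and p-values were adjusted over all 12461 by the Benjamini-Hochberg method. This scale understates the change of low genes. The authors' Cuffdiff comparison, which needs reads, was not repeated. The script was tested on simulated data. P-values measure the spread between these libraries; the labels give no batch.

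Members, role groups and the wider lists (written by hand) were chosen with earlier results of these data known. Members named with all their values are those past the adjusted p, those counted as higher or lower in all 3 lines, and, in each role, those with the largest and smallest log2 fold change and the highest level; other names, such as *Utp20* and *Nop10*, were chosen after their values were seen. Wider-list genes named are those past both thresholds, up to 4 a list. *Urb2* and *Exosc6* matched no entry. A marker of the lists is not reported here. Positions are from GENCODE M21 (GRCm38) and promoter windows from RefSeq (GRCm38.p6), matched by symbol.

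Alternatives were a pseudocount of 0.1, no filter, a filter at a mean of 5 FPKM, 4 scalings of the libraries, no trend, weights per sample, and fits that left out 1 library at a time.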

Additional observations from a re-analysis of the deposited data

How the results depend on the processing

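The median log2 fold change of the members stayed between 0.42 and 0.76 over the 15 alternatives, and the median log2 ratio, over the 10 that bear on it, between 0.64 and 0.91 in line 199, 0.38 and 0.70 in line 233 and 0.37 and 0.70 in line 336. No member was past the adjusted p and lower under any of the 15 (limma; 0 or 1 lower at an unadjusted p under 0.05). The number of members past both thresholds was 4 with a pseudocount of 0.1, where *Rrn3* was added. Of all 12461 entries 334 were then higher past both, against 329 with a pseudocount of 1. After rescaling each library to the same sum, 6 members and 403 of all entries were higher past both. The number of members past the adjusted p alone was 7 with sample weights, where the share of all entries that were higher also rose, to 6.81% from 3.03%. Leaving out 1 library, both counts ranged from 0 to 4, with 0 without MEC 1, MEC 2 or MEC 3, fits in which *Mapk8* and *Mapk9* were not past the adjusted p either. Leaving out line 233 or 336 changed which genes passed: *Nop10*, *Polr1d*, *Rrn3* and *Wdr12*, or *Polr1d*, *Rrn3*, *Utp20* and *Wdr12*. Quantile normalization moved the median of all tested entries to 0.10, against 0.01, and the share of higher genes among all calls from 26.7% to 37.9%. In that fit 6 members were past the adjusted p, and the share of all entries that were higher past it was 4.31%, against 3.03%. The log2 fold change of *Gar1* was -0.038 under quantile normalization, -0.039 under upper-quartile scaling, -0.29 with sample weights and -0.25 to 0.22 with a library left out, and that of *Tsr1* was -0.051 to 0.57 with a library left out. Of the wider lists, 13 genes were higher past the adjusted p, but 8 with no filter, 7 with upper-quartile scaling, 7 with no trend, 26 with sample weights and 0 to 18 with a library left out. The share of all entries that were higher past it was 1.42%, 2.56%, 2.64% and 6.81% in these settings, in that order. With a library left out it was 0.386% to 5.65%. The alternatives for the wider lists and for groups that do not overlap (25 to 31 members, lower ones included) were added after seeing the data. The cause of these changes was not tested. No paired analysis was possible because the MEC are numbered 1 to 3 and the lines 199, 233 and 336, so the groups share no number. Depth is unknown.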
